A study of Homo sapiens with 2 samples.

Results

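The regions described here are places where FLAG-tagged SMARCA4 gave more reads in parental TOV21G cells than in an EZH2 inhibitor-resistant (EIR) clone. Each lay near a promoter of a long noncoding RNA (lncRNA) gene and near none of a protein-coding gene. A region was taken from the parental-higher list when its nearest edge lay within 1 kb of the transcription starting site (TSS) of any transcript of a lncRNA gene in GENCODE release 44 on GRCh37, when no TSS of a protein-coding gene lay within the same distance, and when it was not on chromosome Y. Of 12896 regions that differed between the libraries in either direction, 10792 were higher in parental cells, and 388 of those met the rule. A TSS of another gene type also lay within 1 kb of 24 of the 388 (6.19%), and of none of the remaining 364. The other parental-higher regions were 4668 within 1 kb of a coding TSS, 5596 with no TSS within 1 kb, and 140 near TSSs of other gene types only.

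TOV21G is a line of ovarian clear cell carcinoma with mutated *ARID1A*. The parental library came from TOV21G cells, and the EIR library came from 1 resistant clone, numbered 3, selected in GSK126, an EZH2 inhibitor, at 5 μM and then at 10, 15 and 20 μM. In both, SMARCA4 carried a FLAG tag at its own locus, tagged cells were picked as single colonies, and anti-FLAG antibody was used for ChIP-seq, in which reads (tags) pile up where the protein sits on DNA. There was 1 library per condition, so no spread between replicates or clones can be given, no test of the conditions was possible, and the difference between parental cells and the clone cannot be told apart from a difference between these libraries. The parental library held 25640273 tags and the EIR library 1.36 times as many, and EIR tags are given scaled to the parental total, where 1 EIR tag counts as 0.733.

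SMARCA4 (BRG1) is an ATPase of the SWI/SNF complex, which slides and evicts nucleosomes and thereby opens promoters and enhancers. LncRNA genes yield transcripts that are not translated. Some act on chromatin, such as *HOTAIR* and *KCNQ1OT1*, some are the precursors of microRNAs, and for many no function is known. Their promoters are of more than a single kind. Those with a CpG island resemble promoters of broadly expressed coding genes, whereas others, poor in CpG, resemble enhancers, where short unstable transcripts often start.

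Both kinds of promoter were found among the 388 regions. Reference sequences of GRCh37 are shown for 3 of them, each from 100 bp before an annotated lncRNA TSS to 99 bp after it, read along the strand of the lncRNA, with every CpG in capitals. *MIR17HG* and *MIR210HG* are microRNA host genes whose regions were among the strongest, while *LINC01102* is a lncRNA gene without a CpG island at this TSS.
MIR17HG (chr13:91999851-92000050, plus strand): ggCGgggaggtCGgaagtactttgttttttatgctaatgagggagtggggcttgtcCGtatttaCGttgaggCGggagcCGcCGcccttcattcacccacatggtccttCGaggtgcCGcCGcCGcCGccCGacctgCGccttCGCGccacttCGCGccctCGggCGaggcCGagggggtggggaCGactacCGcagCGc
MIR210HG (chr11:568350-568549, minus strand): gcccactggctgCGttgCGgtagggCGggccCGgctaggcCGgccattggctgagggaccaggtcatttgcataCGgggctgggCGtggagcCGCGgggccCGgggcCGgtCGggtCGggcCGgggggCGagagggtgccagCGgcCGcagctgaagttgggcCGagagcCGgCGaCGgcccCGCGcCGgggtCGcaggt
LINC01102 (chr2:105050699-105050898, plus strand): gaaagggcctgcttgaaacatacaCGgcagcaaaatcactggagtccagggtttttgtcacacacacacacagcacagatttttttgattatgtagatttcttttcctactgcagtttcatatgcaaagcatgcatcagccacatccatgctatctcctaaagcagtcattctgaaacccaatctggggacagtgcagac
The *MIR17HG* sequence holds 24 CpGs and the *MIR210HG* sequence 25, against 1 at *LINC01102*. Each TSS is that of the transcript marked canonical and is covered by its region.

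The region at *MIR17HG*, precursor of the miR-17-92 cluster, spanned chr13:91999096-92001382 and held 125 tags in parental cells against 42.5 scaled tags in the EIR clone, a fold of 2.94 (95% confidence interval 2.14 to 4.09). At *MIR210HG* (chr11:567526-569124) there were 136 tags against 49.8, a fold of 2.73 (2.02 to 3.71). The region at *LINC01102* (chr2:105049302-105051438), an intergenic transcript whose nearest coding TSS, of *POU3F3*, is 418307 bp away, held 105 tags against 49.8, a fold of 2.11 (1.54 to 2.90). Per length, parental tags were 54.7 per kb at *MIR17HG*, 85.1 per kb at *MIR210HG* and 49.2 per kb at *LINC01102*. The *LINC01102* region was strong for its kind. Regions without a CpG-rich centre (defined below) had a median of 24 parental tags, against 49.5 in CpG-rich regions. Each interval of a fold was made by the exact Clopper-Pearson method from both tag counts and covers counting error only.

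Across the 388 regions the median was 30.5 tags in parental cells, with a range of 16 to 151, against 11 scaled tags in the EIR clone. The median fold was 2.73 and single regions ranged from 1.50 to 13.64. Every region had at least 1 tag in the EIR library. Per length, the median was 48.3 parental tags per kb, against 64.2 at coding promoters and 40 in regions with no TSS. A fold of at least 4 was seen in 30 of the 388 regions (7.73%), beside 11.9% of the whole parental-higher list. Because the list was selected on this contrast, these values only describe it, and a weak region had to have a larger fold to enter it. They also rest on the scaling by total tags: multiplying the scaled EIR tags by 1.5 gave a median fold of 1.82, and the Poisson *P* value then stayed at or under 1e-04 in 55 regions. The plot of tags in both libraries shows the narrow band in which the regions lie.

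**Figure D1:**
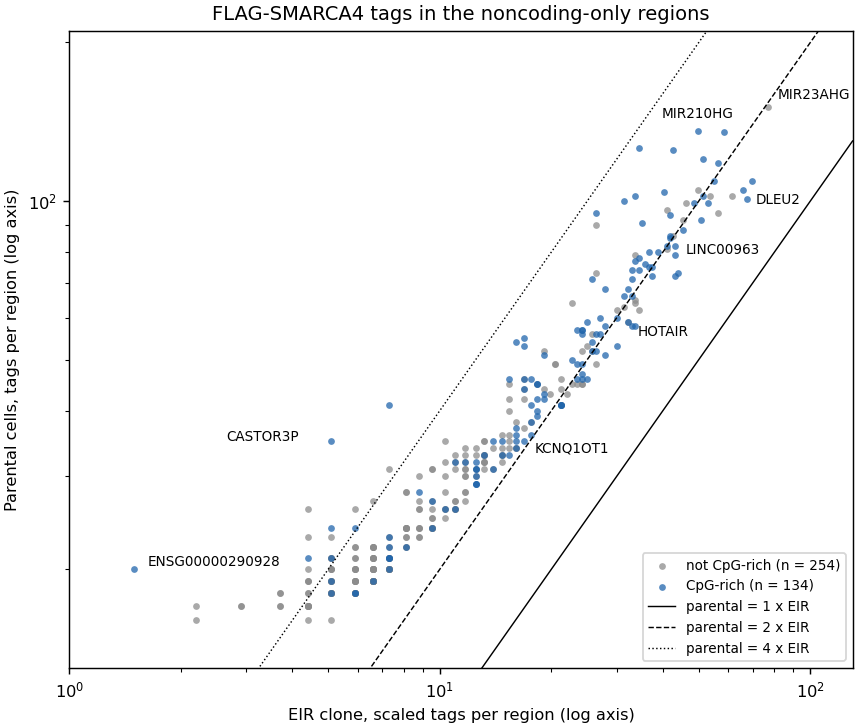
Tags of the 388 regions in the EIR clone (x axis, scaled to the parental total, log axis) and in parental cells (y axis, log axis), 1 point per region, coloured by whether the central 500 bp are CpG-rich. Lines mark equal tags and 2 and 4 times as many tags in parental cells; the regions run from 16 to 151 parental tags and most lie between the lines of 2 and 4.

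In GC content and CpG the regions fell between coding promoters and regions away from any TSS. The median GC content of the central 500 bp was 52.4%, against 73.6% in parental-higher regions at coding promoters and 43.8% in those with no TSS. A CpG-rich centre, with over 50% GC and over 0.6 of the CpGs that its base composition predicts, was present in 134 regions (34.5%), in 79.9% of coding promoter regions and in 4.31% of regions with no TSS. The GC distribution had a broad low part and a high part rather than a single peak. The 134 CpG-rich regions had a median of 49.5 parental tags and a fold of 2.27, and the other 254 had 24 tags and a fold of 2.88. Per length, the CpG-rich regions had a median of 67.4 parental tags per kb and the others 42 tags per kb. Across the 388 regions the Spearman correlation of parental tags with GC content was 0.48 and that of the fold with GC content was −0.41; all points share the same pair of libraries, and the fold itself fell with the tags (rho = −0.75).

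**Figure D2:**
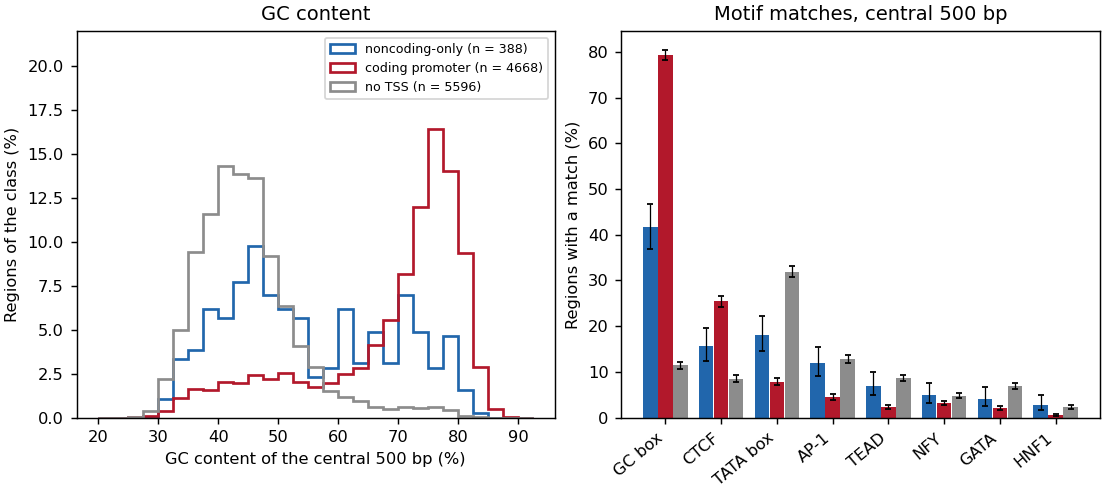
Left, GC content of the central 500 bp (x axis, %) by share of the regions of each class (y axis, %). Right, share of regions (y axis, %) with a match to each motif in the central 500 bp, in the same colours, with 95% Wilson intervals. The 388 noncoding-only regions lie between the other classes in GC content and in matches to the GC box and the TATA box.

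The overlap with the TSS itself divided the regions in a similar way. A lncRNA TSS was covered by 157 regions (40.5%), which had a median of 41 parental tags, a fold of 2.39 and a GC content of 64.4%. The 231 regions that lay beside a TSS without covering it had 24 tags, a fold of 2.85 and 47.0% GC. Covering regions had a median of 55.7 parental tags per kb and the others 44 tags per kb. By length, regions of exactly 500 bp, the shortest in the list, covered a TSS in 27.4% of cases, fewer than the longer regions did. The centre of 106 regions lay in an exon of the nearest lncRNA gene, that of 147 in an intron and that of 135 outside it.

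No strong region had a large fold. With at least 60 parental tags, 0 of 65 noncoding-only regions reached a fold of 4, which allows a share of up to 5.58% (Wilson interval), beside 93 of 1783 coding promoter regions (5.22%). Among regions with no TSS, 1 of 214 with as many tags reached it (0.47%). The median fold in that bin was 2.06, against 2.35 at coding promoters and 2.21 in regions with no TSS. In the bins of 15 to 19, 20 to 29 and 30 to 59 tags the medians were 3.38, 2.98 and 2.35, and at coding promoters 3.41, 2.86 and 2.37. At matched tags the median folds of noncoding-only and coding promoter regions were thus similar up to 59 tags. Regions with no TSS had medians of 3.51, 2.96 and 2.5 there. In each class the lowest fold was 2.88 at 15 to 19 tags, 2.3 at 20 to 29 and 1.71 or 1.72 at 30 to 59. The limit on the p-value of the list sets this lowest fold. The similar medians are therefore partly fixed by the selection and are not read as a trait of promoters. In these bins a fold of at least 4 was seen in 18.6%, 11.9% and 2.22% of noncoding-only regions. The shares at coding promoters were 28.7%, 10.9% and 6.35%, and in regions with no TSS 29.6%, 9.72% and 2.54%. No test of these differences, or of those at 60 tags or more, was made. In the same bins the CpG-rich share of the noncoding-only regions was 7.14%, 16.9%, 46.7% and 70.8%, below the share at coding promoters in each bin, where 1729 of 1783 regions with at least 60 tags were CpG-rich.

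**Figure D3:**
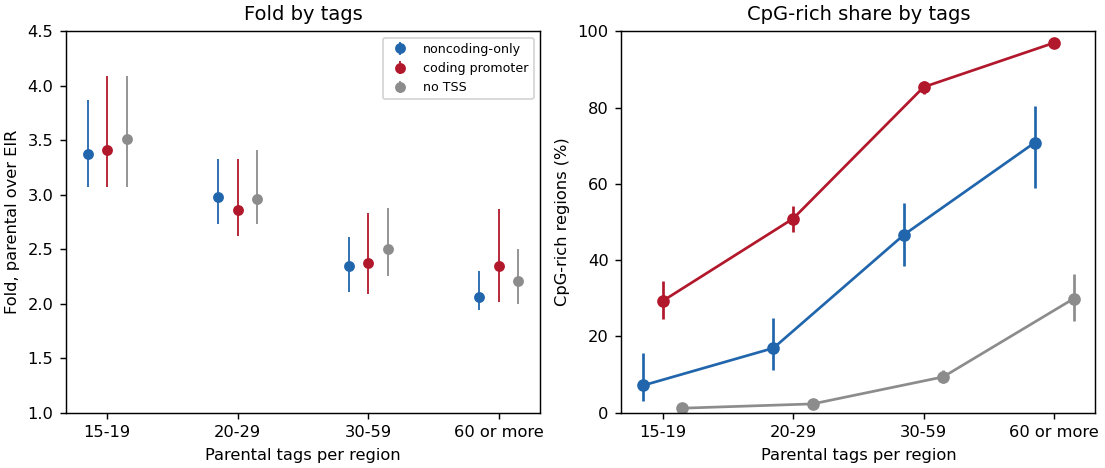
Left, median fold of parental over EIR tags (y axis) by parental tags per region (x axis, 4 bins); bars are the quartiles over regions. Right, share of CpG-rich regions (y axis, %) in the same bins and colours with 95% Wilson intervals; the noncoding-only share rises from 7.14% to 70.8% and lies between the other classes in every bin.

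Matches to the AP-1 motif are shown next, since AP-1 is a dimer of FOS and JUN proteins that binds many enhancers and recruits SWI/SNF. The letters searched were TGAGTCA on either strand in the central 500 bp, and 46 of the 388 regions held a match (11.9%, 9.01 to 15.5%), beside 4.41% of coding promoter regions, 12.8% of regions with no TSS and 9.09% of the whole parental-higher list. The windows of 100 bp on the plus strand of GRCh37 are shown with the match in capitals: those in the second *LINC-PINT* region and a *LINC00511* region, whose genes have several regions, and those in a CpG-rich and a CpG-poor region with at least 60 parental tags.
LINC-PINT (chr7:130597604-130597703, plus strand): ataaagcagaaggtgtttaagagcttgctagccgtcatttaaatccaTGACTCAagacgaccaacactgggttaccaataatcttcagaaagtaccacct
LINC00511 (chr17:70586642-70586741, plus strand): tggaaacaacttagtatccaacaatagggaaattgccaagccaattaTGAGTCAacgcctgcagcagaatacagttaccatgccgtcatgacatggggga
LINC00963 (chr9:132250911-132251010, plus strand): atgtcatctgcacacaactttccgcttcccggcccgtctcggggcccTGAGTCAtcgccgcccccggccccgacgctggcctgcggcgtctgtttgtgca
ENSG00000235978 (chr3:4866692-4866791, plus strand): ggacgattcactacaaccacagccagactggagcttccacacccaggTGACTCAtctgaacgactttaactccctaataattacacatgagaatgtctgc
The *LINC00963* window, with 68% GC, lies in a CpG-rich region that covers its TSS (chr9:132250384-132251144, 82 tags against 43.2, fold 1.90), while the other windows have 41 to 47% GC. The *LINC00511* window is in the region chr17:70586302-70586802 (20 tags against 7.3, fold 2.73). A match describes the letters and is not evidence of binding.

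AP-1 matches varied with GC content in every class of region. When all parental-higher regions were cut into 3 classes of equal size at 44.4 and 66.2% GC, matches were found in 12 of 100 noncoding-only regions of the lower class, in 28 of 183 of the middle class (15.3%, 10.8 to 21.2%) and in 6 of 105 of the upper class (5.71%). The corresponding shares at coding promoters were 10.8%, 8.80% and 2.43%, and in regions with no TSS 12.3%, 13.8% and 7.10%. In the lower GC class the intervals of all 3 kinds of region overlapped. In the middle GC class the interval at coding promoters, 7.16 to 10.8%, lay just below that of the noncoding-only regions.

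The GC box, CTCF and TATA box motifs also placed the 388 regions between the classes. The GC box (GGGCGG), bound by SP1-family factors, was found in 41.8% of them, against 79.4% at coding promoters and 11.4% with no TSS. The core of the CTCF motif (CNAGGNGGC) was found in 15.7%, against 25.4% and 8.45%. TATAAA, the TATA box, was present in 18.0%, against 7.86% and 32.0%.

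Within the 388, the GC box matched 90.3% of CpG-rich centres and 16.1% of the others. The TEAD motif (ACATTCC) matched 6.96%, against 2.34% at coding promoters and 8.60% with no TSS. Matches to the motif of GATA factors (letters AGATAAG) were found in 4.12%, against 1.99% and 6.81%. The next 3 motifs matched more often than in either class. NFY (CCAATCA) was found in 4.90%, against 3.13% and 4.77%, HNF1 (GTTAATNAT) in 2.84%, against 0.493% and 2.23%, and the CRE (TGACGTCA) in 1.55%, against 1.24% and 0.232%, and in each the interval of the 388 held the larger of the other shares. NRF1 (GCGCATGCG) was found in 0.258%, against 0.750% and 0.0536%, and the ETS motif (CCGGAAGT) in 0.515%, against 1.91% and 0.250%. All motifs were searched on both strands of the central 500 bp.

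The 388 regions lay within 1 kb of a TSS of 384 lncRNA genes, 2.07% of the 18592 annotated outside chromosome Y. A single region was found at 360 of these genes and several at 24. By the symbol of the nearest gene, 199 regions belonged to genes known only by a clone or Ensembl identifier, 87 to LINC genes, 33 to antisense genes, 11 to microRNA hosts, 7 to divergent transcripts, 2 to intronic or overlapping transcripts, 2 to snoRNA hosts and 47 to genes with other approved symbols. Median folds were 2.73 in the first pair of these classes, 2.52 at antisense genes and 2.30 at microRNA hosts. GENCODE also gives the lncRNA type to some genes with pseudogene symbols, such as *CASTOR3P*.

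The microRNA hosts included the regions with the most tags. A host gene is transcribed as a long precursor from which Drosha and Dicer cut the mature microRNA, whose bases 2 to 8, the seed, pair with target mRNAs. Of 81 annotated lncRNA genes with a host symbol, 11 had a region (13.6%), beside 2.07% of all annotated lncRNA genes. EIR-higher noncoding-only regions lay at 4 of the 81, beside 69 of all 18592 annotated lncRNA genes. Host genes were not matched to the others in expression or in number of annotated TSSs. Of the 11 parental-higher host regions 9 covered a TSS and 7 were CpG-rich, beside 40.5% and 34.5% of all 388. Mature sequences (RefSeq, GRCh38.p14) of hosts with strong regions or a shared seed are shown with the seed in capitals. The let-7 family, which represses *HMGA2* and *LIN28B*, is encoded in 3 of the hosts.
hsa-let-7a-5p: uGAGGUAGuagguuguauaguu
hsa-let-7b-5p: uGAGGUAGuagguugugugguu
hsa-let-7d-5p: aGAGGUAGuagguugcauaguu
hsa-let-7f-5p: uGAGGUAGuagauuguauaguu
hsa-miR-210-3p: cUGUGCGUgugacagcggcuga
hsa-miR-23a-3p: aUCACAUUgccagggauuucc
hsa-miR-27a-3p: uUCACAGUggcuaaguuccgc
The 4 let-7 sequences share the seed GAGGUAG and differ outside it. let-7a lies in *MIR100HG*, *MIRLET7A1HG* and *MIRLET7BHG*, let-7d and let-7f in *MIRLET7A1HG*, and let-7b in *MIRLET7BHG*. RNA levels were not analysed here, so these sequences name what the genes encode and not what was expressed.

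*MIR23AHG*, host of miR-23a and miR-27a, had the most parental tags of all 388 regions. Its region (chr19:13953061-13955369) held 151 tags in parental cells against 77 scaled tags in the EIR clone, a fold of 1.96 (1.52 to 2.54). With 0.22 of the predicted CpGs it was not CpG-rich. At *MIRLET7BHG* (chr22:46466444-46468258) there were 135 tags against 58.6, a fold of 2.30 (1.73 to 3.07). The *MIRLET7A1HG* region (chr9:96928307-96929099) had 53 tags against 16.9 and a fold of 3.14 (1.89 to 5.37). Both let-7 hosts have islands with at least 78.0% GC. The remaining host of let-7, *MIR100HG* (chr11:122051450-122051950), had a CpG-poor region with 22 tags against 6.6 and a fold of 3.33 (1.48 to 8.23). The intervals of these 3 let-7 host folds overlapped.

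The other genes with a host symbol had 20 to 85 parental tags. *MIR193BHG*, which carries miR-193b and miR-365a, had 85 tags against 41.8, a fold of 2.03 (1.44 to 2.90). *MIR29B2CHG* had 58 against 27.9, a fold of 2.08 (1.36 to 3.22). At *MIR1915HG* the fold was the smallest of the 11 genes with a host symbol, 1.76 (1.15 to 2.72), from 53 tags against 30.1. The weak regions were *MIR130AHG*, with 27 tags against 11.7 (fold 2.30), and *MIR194-2HG*, the host of miR-192, with 20 tags against 7.3 (fold 2.73). None of the 11 host regions reached a fold of 4.

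Of 78 annotated genes in a list of well-studied lncRNAs, 17 (21.8%) had a noncoding-only parental-higher region, and a further 9 had a parental-higher region that also lay near a coding TSS. Of all 18592 annotated lncRNA genes, 2.07% had a noncoding-only parental-higher region, and a further 1073 had a parental-higher region near a coding TSS. The listed genes were not matched to the others in expression or in number of annotated TSSs. Of 33 snoRNA host lncRNAs 3 had a noncoding-only region. Of 88 lncRNAs named for a transcription factor gene 5 had one, with 22 more near a coding TSS. EIR-higher noncoding-only regions lay at 2, 0 and 0 genes of these lists, in the order given, and at 69 of all 18592 annotated lncRNA genes. The lists were drawn up with earlier results of these data known.

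**Figure D4:**
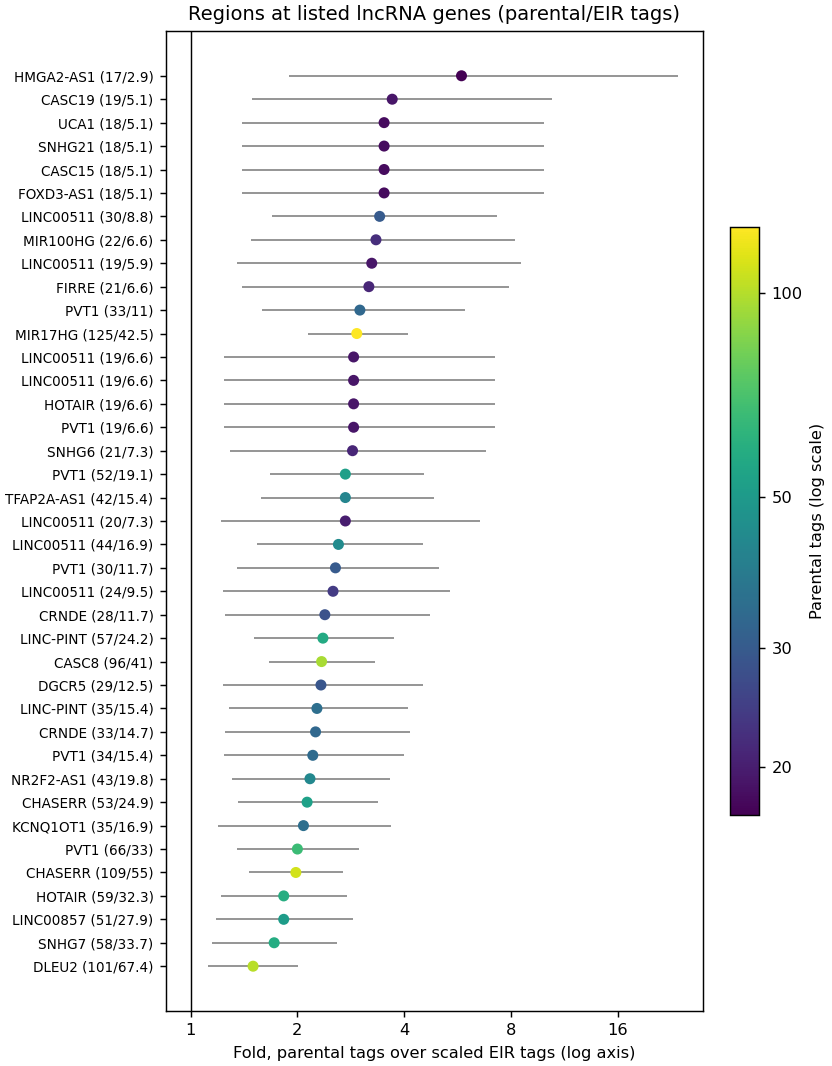
Fold of parental over scaled EIR tags (x axis, log axis) of each region at a gene of the 3 lists (y axis, with parental and scaled EIR tags in parentheses), with 95% Clopper-Pearson intervals for counting error; colour gives parental tags. The folds run from 1.50 at DLEU2 to 5.80 at HMGA2-AS1, and regions with many tags have the narrower intervals.

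Among lncRNAs that act on chromatin, *HOTAIR*, an antisense transcript of the HOXC cluster, had 2 regions, each over a TSS. The stronger (chr12:54368462-54368962) held 59 tags against 32.3, a fold of 1.83 (1.22 to 2.77), and the other one (chr12:54360805-54361305) held 19 tags against 6.6, a fold of 2.88 (1.24 to 7.23). *KCNQ1OT1*, the imprinted transcript antisense to *KCNQ1*, had a CpG-rich region 211 bp from a TSS (chr11:2721444-2721944) with 35 tags against 16.9, a fold of 2.08 (1.19 to 3.68). *FIRRE*, a nuclear transcript of the X chromosome, had 21 tags against 6.6, a fold of 3.18 (1.40 to 7.89). *CHASERR*, which lies next to *CHD2* and lowers its expression, had a region over a TSS (chr15:93425803-93427639) with 109 tags against 55, a fold of 1.98 (1.46 to 2.70), and a second with 53 tags against 24.9.

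Among lncRNAs studied in cancer, *DLEU2*, in the 13q deletion interval and host of miR-16-1, had the smallest fold of all 388 regions. Its region covered a TSS (chr13:50698275-50699569) and held 101 tags against 67.4, a fold of 1.50 (1.12 to 2.01). *LINC-PINT*, a p53-responsive transcript, had a CpG-rich region at a TSS with 57 tags against 24.2 (chr7:130790458-130791482, fold 2.36, 1.51 to 3.74). Its second region, which holds the AP-1 match, is shared with *LINC00513* and had 35 tags against 15.4 (chr7:130597375-130597875, fold 2.27). At *CRNDE*, divergent from *IRX5*, there were 33 tags against 14.7 (fold 2.25) and 28 against 11.7 (fold 2.39). *LINC00857* had 51 tags against 27.9 (fold 1.83) and *DGCR5* 29 against 12.5 (fold 2.33). *CASC15*, whose region lay 314395 bp from the nearest coding TSS, of *SOX4*, had 18 tags against 5.1 (fold 3.51).

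*LINC00511*, a long gene of 350 kb on chromosome 17, had the most regions, 7, at 84 annotated TSSs. They held 19 to 44 tags in parental cells and their folds ran from 2.52 to 3.41. The strongest (chr17:70404279-70405747) had 44 tags against 16.9, and the one that covers a TSS (chr17:70403183-70403951) had 30 against 8.8, a fold of 3.41 (1.70 to 7.31). The remaining 5 had 24 tags or fewer. *PVT1*, downstream of *MYC* on chromosome 8, had 6 regions at 132 TSSs. That at its promoter (chr8:128806300-128807062) was CpG-rich and held 66 tags against 33 (interval of the fold 1.35 to 2.99), and the other 5, within the gene, held 19 to 52 tags with folds of 2.21 to 3.00. *CASC8* and *CASC19*, in the same MYC neighbourhood, had 96 tags against 41 (fold 2.34) and 19 against 5.1 (fold 3.70). *LINC01588* on chromosome 14 had 4 regions at 17 TSSs, with folds from 1.93 to 4.23. Genes with many annotated TSSs offer more places for a region to count, and intervals of the regions within each gene overlapped.

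The regions at listed lncRNAs named for a transcription factor gene, other than *HOTAIR*, held 17 to 43 parental tags. *HMGA2-AS1*, in *HMGA2* on the other strand, had 17 tags against 2.9, a fold of 5.80 (1.89 to 23.7), the largest among the listed genes. *FOXD3-AS1* had a CpG-rich region with 18 tags against 5.1, a fold of 3.51. *TFAP2A-AS1* had 42 tags against 15.4 (fold 2.73, 1.58 to 4.85), 1355 bp from a TSS of *TFAP2A*. *NR2F2-AS1* had 43 tags against 19.8 (fold 2.17), 1869 bp from *NR2F2*. The snoRNA hosts were *SNHG7* (58 tags against 33.7, fold 1.72), *SNHG6* (21 against 7.3, fold 2.86) and *SNHG21* (18 against 5.1, fold 3.51).

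The largest folds came from weak regions. The region at a lncRNA gene without a symbol, ENSG00000290928 (chr17:29036095-29036595), had 20 tags against 1.5, a fold of 13.64 (3.31 to 120). It was followed by ENSG00000235070 with 17 against 2.2 (fold 7.73, 2.24 to 41.2), ENSG00000282408 with 16 against 2.2 (fold 7.28, 2.08 to 39.0), *CASTOR3P* with 35 against 5.1 (fold 6.82, 2.99 to 18.2) and *MAGI1-IT1* with 26 against 4.4 (fold 5.91, 2.38 to 17.6). All of these intervals reached below 4. At both ENSG00000290928 and *CASTOR3P*, 11.1% of the 75-base words sampled across the region occurred more than once in GRCh37, so some reads of the study's length could not be placed uniquely there. Such a word was found in 13 of the 388 regions (3.35%) and in 2.01% of the whole parental-higher list, and its part in the folds was not tested.

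Other regions with many tags lay at genes that have no list. The region 90 bp from ENSG00000289385 (chr3:193851762-193852918) held 126 tags against 34.5, a fold of 3.66 (2.60 to 5.23), and ended 1019 bp from a TSS of *HES1*, a Notch target, so it only just met the rule. ENSG00000290796 on chromosome 22 had 120 tags against 51.3 (fold 2.34). *LINC02897* had 118 against 56.4 (fold 2.09), ENSG00000226816 had 109 against 69.6 (fold 1.57) and *LINC01948* had 105 against 66 (fold 1.59). Among antisense genes the strongest were *TEDC2-AS1* with 100 tags against 31.5 (fold 3.17, 2.20 to 4.65), *USP3-AS1* with 99 against 48.4 (fold 2.05) and *SLC9A3-AS1* with 86 against 42.5 (fold 2.02). Among divergent transcripts they were both regions of *ITGB1-DT*, with 92 against 45.4 and 38 against 17.6, and that of *POU2F1-DT*, with 27 against 6.6.

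Most regions lay far from coding promoters. A coding TSS lay over 1 and up to 2 kb away from 40 regions, up to 5 kb from 44, up to 20 kb from 91, up to 100 kb from 142 and farther from 71. Median folds in these classes were 2.73, 2.48, 2.73, 2.61 and 2.73, while parental tags fell from 42.5 in the nearest class to 24 in the farthest. No coding gene held the centre of 301 regions, 63 lay in a coding gene on the strand opposite to the lncRNA, 22 in one on the same strand and 2 in coding genes on both strands. The coding gene with the nearest TSS had a parental-higher region of its own, within 1 kb of a TSS, for 194 of the 388 regions (50%), whereas 23.2% of all 20098 coding genes had one. For regions with no TSS the share was 57.7%. An EIR-higher region lay at the nearest coding gene of 3 of the 388 (0.77%, 0.26 to 2.25%). The share was 1.97% of all coding genes and 2.52% for regions with no TSS.

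Another parental-higher region lay within 20 kb of 224 of the 388 regions (57.7%, 52.8 to 62.5%), against 33.8% of coding promoter regions and 62.2% of regions with no TSS. An EIR-higher region lay as near to 21 of them (5.41%), a share close to the 6.02% and 5.45% of the other classes. By chromosome, 36 regions each lay on chromosomes 8 and 17 (9.28%), which hold 5.29% and 5.07% of the parental-higher list. The 6 regions of *PVT1* and the 7 of *LINC00511* are among them. Chromosome 10 holds 11.1% of that list and 6.70% of the 388 regions. Of the annotated lncRNA genes, 4.75% lie on chromosome 8, 5.21% on chromosome 17 and 4.20% on chromosome 10. Copy number was not analysed here.

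In the opposite direction, 69 EIR-higher regions met the same rule, a ratio of parental-higher to EIR-higher regions of 5.62. Thus 388 of 457 noncoding-only regions were parental-higher. That share is close to the 83.8% (10792 of 12875) of all regions outside chromosome Y. The 69 were weaker than the 388, with a median of 20.5 scaled EIR tags, and 14.5% of them were CpG-rich. In the whole EIR-higher list the median was 17.6 scaled EIR tags and 9.74% of regions were CpG-rich. A region of each direction lay near TSSs of the same gene for 6 lncRNA genes. At *LINC02298* a parental-higher region of 104 tags against 40.3 overlapped at its edge with an EIR-higher region of 23.5 scaled tags against 9. At *LNC-LBCS* there were 2 parental-higher regions, with 32 tags against 12.5 and 21 against 6.6, and an EIR-higher region with 31.5 scaled tags against 14. At *LINC01778* a parental-higher region of 32 tags against 13.2 also overlapped with an EIR-higher region, of 21.3 scaled tags against 7. The others were *RMDN2-AS1*, *LINC01262* and ENSG00000292309.

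The edges of the rule were as follows. The regions just inside the limit of 1 kb from a lncRNA TSS were 992 bp from ENSG00000289895 (49 tags against 26.4) and 990 bp from ENSG00000226756 (45 against 23.5), and just outside it were regions at *MIR22HG* (1001 bp, 26 against 11) and *DNMBP-AS1* (1004 bp, 35 against 8.8). For coding TSSs, regions at 1006 bp from *TMED4* and 1015 bp from *FSTL1* were kept, while those 997 bp from *STARD4* and 982 bp from *ARNT2* were not. The regions on both sides of each limit had tags within the range of the 388.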

How the data were processed

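FLAG-SMARCA4 ChIP-seq was analysed in 2 libraries, grouped by the sample labels. The authors aligned 75-base single-end reads with bowtie 0.12.9 to hg19 and called regions with HOMER in histone style, each library serving as control of the other. The deposited lists give a count of tags of the library named first, the tag signal of the other scaled to its total, the fold (a ratio) and a Poisson p-value, of at most 1e-04 in each list. The score, clonal fold and region size columns were not used. Since only regions that differ are listed, regions bound alike were not analysed here.

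The step of the scaled EIR tags, 0.733, gave whole EIR tags, and 100% of 173 distinct values of at least 5 were whole within 0.05 of a tag. Regions were joined to TSSs of GENCODE release 44 lifted to GRCh37. Shares have Wilson intervals, although regions are not replicates. GC content and motifs were read from the central 500 bp, and 75-base words were sampled every 50 bp and counted in GRCh37 on both strands. The members, gene lists and alternatives were chosen with earlier results of these data known. Genes named are those of the lists, the 5 regions with the largest folds and the 5 with the most tags, the 3 with the most tags in each symbol class, the gene with the most regions and the regions at each limit; AP-1 examples, genes with several regions, the remaining microRNA hosts and genes with both directions were added after their values were seen. The sequence of 1 further promoter is not reported here. Steps were tested on simulated data. The work used pysam 0.24.0, scipy 1.17.1, pandas 2.3.3, numpy 2.4.6 and matplotlib 3.10.9 under Python 3.11.15.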

Additional observations from a re-analysis of the deposited data

How the results depend on the processing

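Of 41 alternative values, 27 stayed within the limits set for a change and 14 moved. With a p-value of at most 1e-06, 147 regions at 153 lncRNA genes remained, and 20.4% of them had a fold of at least 4. The share of the whole list at that limit is not given here. With the EIR tags multiplied by 1.5, the Poisson p-value stayed at or under 1e-04 in 55 regions at 61 genes, and over all 388 the median fold was 1.82 and the share with a fold of at least 4 was 1.03%. Under that scaling 1 of the 388 regions, at *DLEU2*, had a fold under 1 (0.999). Adding 1 tag to both libraries gave a share of 4.64%. Regions that cover a lncRNA TSS had a median fold of 2.39, a share of 5.10% and a GC content of 64.4%. At a fold of at least 4 the ratio of parental-higher to EIR-higher noncoding-only regions was 1.76, with 17 EIR-higher regions. At that fold the whole lists held 1285 parental-higher and 765 EIR-higher regions, so the ratio is not read as a trait of the noncoding-only regions. AP-1 matches fell to 5.15% in a 300 bp window, which holds fewer bases, and the share covering a TSS was 27.4% among regions of exactly 500 bp. A TSS window of 500 bp or 2 kb gave 324 and 487 regions. No paired analysis was possible because there is 1 library per condition; for the same reason no library could be left out. Folds of regions with few tags are limited by depth, and the list cannot gain regions under an alternative.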

Other observations

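The 69 EIR-higher regions at noncoding-only promoters included some at genes of the same lists. *MIR7-3HG*, host of a miR-7 gene, held 106.3 scaled tags in the EIR clone against 47 tags in parental cells, a fold of EIR over parental of 2.26. *FENDRR*, divergent from *FOXF1*, held 19.1 scaled tags against 4, a fold of 4.76 (95% Clopper-Pearson interval 1.65 to 18.8). *MIR31HG* held 16.1 against 5 (fold 3.23), *MIR9-3HG* 24.2 against 7 (fold 3.46) and *MIR663AHG* 34.5 against 15 (fold 2.30). A pair of regions at *ROCK1P1* held 499.9 scaled tags against 420 and 325.5 against 213, and 50% and 33.3% of their 75-base words occur more than once in GRCh37. Of the 69 regions 10 lay on chromosome 10 (14.5%), beside 21.1% of the whole EIR-higher list. AP-1 matches were found in 4 of the 69 (5.80%) and in 9.84% of that list, a share inside the 95% Wilson interval of the 4 of 69.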
